A study of Mus musculus with 2 samples.

Results

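The histone cluster genes are the mouse genes named Hist1h to Hist4h, which encode the linker histone H1 and the core histones H2A, H2B, H3 and H4 and lie in groups on chromosomes 13, 3, 11 and 6. They were taken as the rows of both count matrices whose symbol begins that way and that held at least 10 UMIs over both matrices (a UMI is a random tag put on each captured RNA molecule, so that copies made later are counted once). Of 67 matching symbols among 32285 genes, 63 passed, namely 5 for H1, 17 for H2A, 16 for H2B, 12 for H3 and 13 for H4. Hist2h2aa2, Hist1h1t, Hist1h2ba and Hist1h2bq held 1 to 7 UMIs and were left out. The cells were promyelocytes, an early stage of the neutrophil line, sorted as Cd45.2+, C-Kit+, Gr1+, Cd34- and FcγR+ from the leukemic bone marrow of mice and transformed by the PLZF/RARA fusion, which both groups carry. One group was injected intraperitoneally with retinoic acid at 0.8 to 1 mg and the other with the vehicle, corn oil with 10% DMSO, over 7 days. A cohort was 3 to 5 mice, and the labels do not say how many mice gave cells to a library, how the fusion was introduced, or the age of the animals. Polyadenylated RNA of single cells was counted by droplet sequencing from the 3′ end, with 1 library for each group.

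Most cluster genes are replication-dependent. Cells transcribe them when DNA is copied, because new DNA needs new histones, and their mRNAs end in a short conserved stem-loop in place of a poly(A) tail. The stem-loop binding protein (SLBP) holds this structure and guides its processing, its translation and, when replication ends, its decay. Some cluster genes also give mRNAs that run past the stem-loop to a polyadenylation signal, a form known from cells that leave the cycle and differentiate. A library primed on poly(A) therefore sees the cluster genes only through polyadenylated forms or through priming inside an A-rich stretch, and it does not measure the bulk of histone mRNA.

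Because each group held 1 library, no difference between them has a replicate check, no test was made, and differences between mice, sorts and preparations cannot be told apart from the treatment. Kept were 5476 vehicle cells (99107718 UMIs, median 16750 per cell) and 7140 retinoic acid cells (110088247 UMIs, median 14604). Brackets after a value give its exact 95% counting interval, which covers counting error only. The libraries shared 11 cell barcodes (0.190% and 0.148% of their barcodes). Of the 6 promyelocyte markers, all exceeded 20 CPM in the vehicle library and 5 did in the retinoic acid library, where Mpo had 55 UMIs (CPM is a gene's UMIs scaled to a common library total, per 1000000 UMIs). Phases of the cell cycle were called from lists of S and G2/M genes that hold no cluster gene. By these calls 48.7% of vehicle cells were in G1, 19.6% in S and 31.7% in G2/M, against 19.97%, 40.3% and 39.7% in the retinoic acid library. A called phase is a range of a score and not a measurement of DNA, and 8.16% of vehicle and 11.4% of retinoic acid cells lay within 0.05 of a boundary.

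The stem-loop is printed first because it marks the usual end of these mRNAs, which has no poly(A) tail. Written as DNA, it was found after the stop codon in the GENCODE M21 transcripts (GRCm38) of 44 of the 63 genes. Of the remaining 19, 16 have an annotated 3′ untranslated region (UTR) of at most 50 bases, which can be an incomplete transcript model. The sequences below run 5′ to 3′ with the stem-loop in capitals. Those of Hist1h1e (chr13:23621782-23621797, minus strand), Hist1h1c (chr13:23739512-23739527, plus strand) and Hist1h2ae (chr13:23570668-23570683, minus strand) have identical letters in the stem-loop. Those of Hist1h4i (chr13:22040966-22040981, minus strand) and Hist2h2ac (chr3:96220418-96220433, minus strand) differ from it.
Hist1h1e: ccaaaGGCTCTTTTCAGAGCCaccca
Hist1h1c: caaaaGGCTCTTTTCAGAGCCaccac
Hist1h2ae: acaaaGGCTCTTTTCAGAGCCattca
Hist1h4i: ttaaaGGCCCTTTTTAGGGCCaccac
Hist2h2ac: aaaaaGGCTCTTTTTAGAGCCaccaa

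The coding sequences also differ in how much A they hold, which is shown because the libraries were primed on A. In the 20 coding bases richest in A, the 5 H1 genes had 11 to 14 A, the H2A genes 9 to 12, the H2B genes 10 to 12, and the H3 and H4 genes 7 to 8. The stretches of Hist1h1b (chr13:21780475-21780494, minus strand), Hist1h1e (chr13:23621842-23621861, minus strand) and Hist1h3d (chr13:23575811-23575830, plus strand) follow, with A in capitals. Whether these stretches were primed was not tested.
Hist1h1b: AAgAAgAAgAcAAcgAAAAA
Hist1h1e: AAAAccgcAgccAAgAAAAA
Hist1h3d: ActAAgcAgAccgctcgcAA

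Over all cells the cluster genes together were level between the libraries, which differ in their mix of phases. Their sum was 487.7 CPM (483.4 to 492.1) in vehicle and 483.3 CPM (479.3 to 487.5) in retinoic acid cells, a log2 ratio of retinoic acid over vehicle of −0.01 (−0.03 to 0.005). With TMM scaling, which sets library totals by a trimmed mean over genes and adds 0.08 to every log2 ratio here, it was 0.07, and without Hist1h1b it was −0.20. Within each phase the sum was lower under retinoic acid, at 192.5 and 77.8 CPM in G1 (−1.31, −1.40 to −1.22), 519 and 451 CPM in S (−0.20, −0.24 to −0.17), and 732 and 627 CPM in G2/M (−0.22, −0.25 to −0.20). With the retinoic acid phases weighted by the vehicle shares it was −0.33. The genes differed among themselves. Of 49 genes with at least 100 UMIs over both libraries, 18 were higher and 31 lower under retinoic acid. Over all 11788 genes with as many UMIs, 5386 were higher and 6402 lower. The median log2 ratio was −0.23 for the 49 genes and −0.045 for all genes. At least 2-fold higher were 2 of the 49 (4.08%), close to the 4.3% of all genes, and at least 2-fold lower were 11 (22.4%), against 10.2% of all genes. The 14 genes below 100 UMIs entered no such count.

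**Figure D1:**
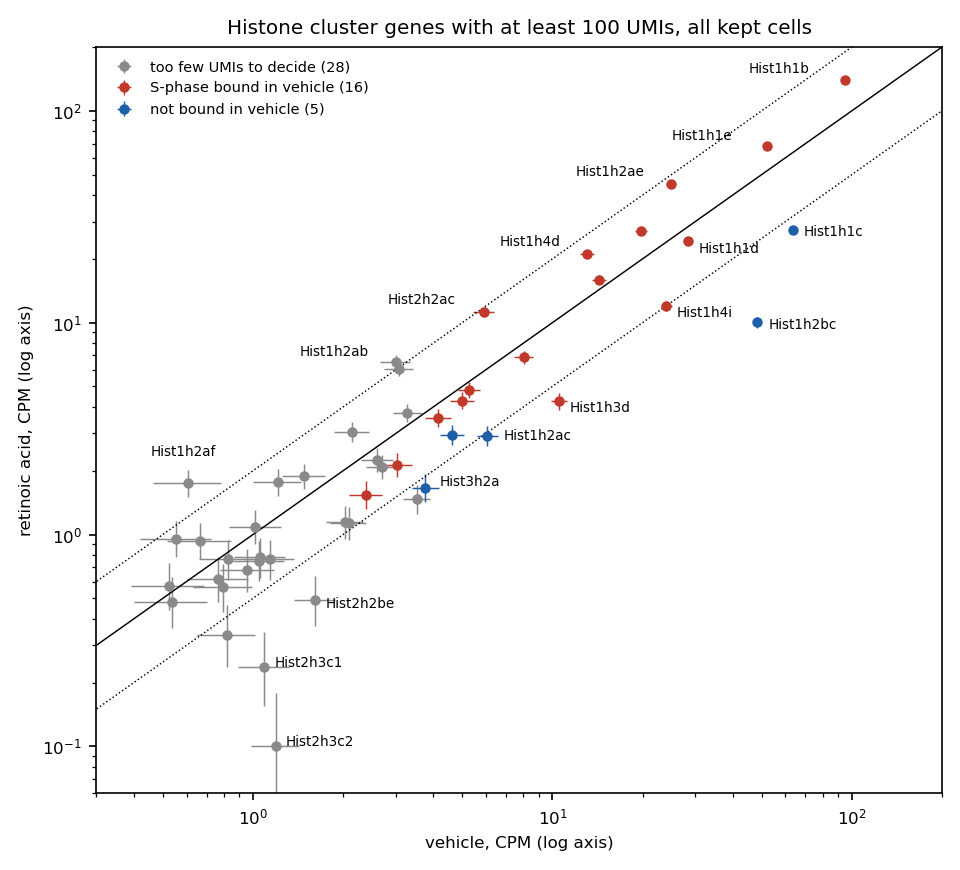
CPM of the 49 histone cluster genes with at least 100 UMIs in the vehicle (x) and retinoic acid (y) libraries, both axes logarithmic, with 95% counting intervals; the solid line marks equal levels and the dotted lines a 2-fold difference. The 5 genes not bound to S phase in the vehicle library (blue) lie below the line of equal levels, while the 16 bound genes (red) lie on both sides of it.

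The H1 genes encode linker histones, which bind DNA where it enters and leaves the nucleosome. They gave 51.9% of all cluster UMIs in vehicle and 57.1% in retinoic acid cells, at 253 and 276 CPM (log2 ratio 0.13, 0.10 to 0.15). Within phases their sum was lower under retinoic acid, at −1.38 in G1, −0.14 in S and −0.08 in G2/M, and it was −0.22 at the vehicle shares of phases. Hist1h1b led in both, with 94.7 CPM (92.8 to 96.6) for vehicle and 140.2 CPM (138.0 to 142.4) for retinoic acid, 1.48-fold higher (log2 ratio 0.57, 0.53 to 0.60). Hist1h1e went from 52.1 to 68.1 CPM (0.39, 0.34 to 0.44). Hist1h1c went the other way, from 63.7 to 27.5 CPM (−1.21, −1.28 to −1.15). It was second of all cluster genes in the vehicle library and stood below Hist1h1b, Hist1h1e and Hist1h2ae in the retinoic acid library. Hist1h1d was at 28.3 and 24.3 CPM and Hist1h1a at 14.3 and 15.95 CPM. No H1 gene has a copy in the clusters that is more than 76.2% identical over its transcript, so their reads are the least likely to be split between copies.

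Histones H2A and H2B pair as dimers in the nucleosome, and over all cells the sums of their genes differed in direction. Of the genes with at least 100 UMIs, 8 of 12 for H2A were higher under retinoic acid and 13 of 14 for H2B were lower. Of all 11788 genes with as many UMIs, 5386 were higher and 6402 lower. The H2A sum went from 71.4 to 104 CPM (log2 ratio 0.55, 0.50 to 0.59) and the H2B sum from 83.5 to 37.1 CPM (−1.17, −1.23 to −1.12). At the vehicle shares of phases they were at 0.18 and −1.31. Within G1 both sums were lower, H2A at 13.7 and 8.32 CPM (−0.71, −1.02 to −0.43) and H2B at −1.49. In S the H2A and H2B sums were at 0.32 and −1.10, and in G2/M at 0.20 and −1.29. Among H2A genes, Hist1h2ae had 24.9 CPM with vehicle and 45.1 CPM with retinoic acid (0.86, 0.79 to 0.93), Hist1h2ap at 19.7 and 27.2 CPM (0.46), and Hist2h2ac at 5.90 and 11.2 CPM (0.93). Hist1h2ab (1.12) and Hist1h2af (1.52) were the only 2 of the 49 genes at least 2-fold higher, at 6.52 and 1.74 CPM under retinoic acid. Hist1h2af has only 60 vehicle counts behind its value. The 4 lower H2A genes were Hist3h2a (−1.18), Hist1h2ac (−1.05), Hist1h2an (−0.50) and Hist2h2ab (−0.49), and the higher H2B gene was Hist1h2bn (0.12). The H2B sum was led by a single gene, Hist1h2bc, with 48.1 CPM (46.7 to 49.5) for vehicle and 10.04 CPM (9.45 to 10.6) for retinoic acid, 4.79-fold lower (−2.26, −2.36 to −2.17). Hist1h2bj, the next, was at 8.01 and 6.85 CPM (−0.23).

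Histones H3 and H4 form the tetramer at the nucleosome core. Over all cells the H3 genes summed to 30.6 and 21.7 CPM (−0.50, −0.57 to −0.42), and the H4 genes to 49.2 and 44.3 CPM (−0.15, −0.21 to −0.09). Within phases both sums were lower by more. H3 was at −1.46 in G1, −0.72 in S and −0.78 in G2/M, and H4 at −0.98, −0.49 and −0.26. At the vehicle shares of phases they were at −0.82 and −0.40. Genes of the same type went apart over all cells here as well. Among H4 genes, Hist1h4i was 2.01-fold lower (24.0 and 12.0 CPM) and Hist1h4d 1.61-fold higher (13.04 and 21.05 CPM). Among H3 genes, Hist1h3d was lower (10.5 and 4.26 CPM, −1.30) and Hist1h3c higher (3.07 and 6.06 CPM, 0.98), while Hist1h3e was at 5.28 and 4.81 CPM (−0.14, −0.31 to 0.04). Among the 5 lowest ratios were 3 cluster 2 genes with few counts, beside the abundant Hist1h2bc. Hist2h3c2 had 118 and 11 counts (−3.52, −4.62 to −2.68), Hist2h3c1 108 and 26 (−2.19), and Hist2h2be 160 and 54 (−1.71). Hist2h3c1 shares its span with a non-coding transcript on the same strand, and both H3 genes have a copy that is 94.67% identical. Of the 63 genes, 41 have a copy at least 95% identical, so reads of a single H2A, H2B, H3 or H4 gene may have been split between copies. The 22 genes without such a copy had a summed log2 ratio of 0.07 (0.05 to 0.09).

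Next the genes were split by S phase. A gene was called S-phase bound in a library where it had at least 100 UMIs over S and G1 cells, where its CPM in S cells was at least 2 times that in G1 cells, and where the lower counting limit of that ratio was above 1. In the vehicle library 21 genes had enough UMIs and 16 were bound (76.2%, against 6.29% of all genes with enough UMIs). In the retinoic acid library 19 of 21 were bound (90.5%, against 6.94% of all genes). The vehicle calls set the split used from here on, and 42 genes stayed undetermined. The split used the vehicle S and G1 values, so the sums in those cells describe it and are no independent support. The bound genes were Hist1h1a, Hist1h1b, Hist1h1d and Hist1h1e for H1, Hist1h2ae, Hist1h2ap and Hist2h2ac for H2A, and Hist1h2bj, Hist1h2bm and Hist2h2bb for H2B. For H3 they were Hist1h3a, Hist1h3d and Hist1h3e, and for H4 Hist1h4d, Hist1h4i and Hist4h4. The 5 genes not bound were Hist1h1c, Hist1h2bc, Hist1h2ac, Hist1h2be and Hist3h2a. Nearest the limit were Hist1h4d (2.06) and Hist1h4i (2.07) inside and Hist1h2ac (1.54) outside.

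How steeply a gene rose from G1 to S varied widely among the bound genes. In the vehicle library Hist1h1b was at 2.05 CPM in G1 and 135 CPM in S, a 65.5-fold ratio, and under retinoic acid at 2.32 and 141 CPM, a 60.0-fold ratio. Hist1h2bm (33.1-fold in vehicle, 6.83-fold in retinoic acid), Hist1h2ap (31.0-fold and 30.0-fold), Hist1h1a (12.4-fold and 45.5-fold), Hist1h2bj (10.9-fold and 4.23-fold), Hist1h2ae (10.6-fold and 22.2-fold) and, by the retinoic acid library, Hist1h2ab (24.6-fold) were also steep. Hist1h1e and Hist1h1d were flatter, at 4.07-fold and 5.49-fold with vehicle and 3.47-fold and 3.81-fold with retinoic acid. They kept 14.0 and 6.31 CPM in vehicle G1 cells. Most genes had their highest CPM in cells called G2/M, 57 of 63 with vehicle and 58 of 63 with retinoic acid. These counts include genes below 100 UMIs, and the share over all genes was not computed, so a general trend is not excluded. Of the 16 bound genes, 14 also had their highest CPM in G2/M and not in S in each library. Hist1h1a was an exception in both, with 25.5 CPM in S and 19.7 CPM in G2/M of vehicle cells and 23.3 and 14.7 CPM with retinoic acid. Hist1h3a was another, with 3.996 and 2.77 CPM in vehicle cells.

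The order of the genes by S over G1 was alike in the libraries. Of 18 genes decided in both, 15 were bound in both, which is 93.8% of those bound with vehicle and 78.9% of those bound with retinoic acid. Across these 18 genes the log2 ratios had a Pearson r of 0.83 and a Spearman rho of 0.81, given as a description, since the genes share cells and phase calls. The gene that changed sides was Hist1h1c. Its log2 S over G1 was −0.60 (−0.71 to −0.49) with vehicle and 1.21 (0.97 to 1.46) with retinoic acid. Lying on opposite sides with both intervals clear of 1 was found for 1 of these 18 genes (5.56%) and for 2.7% of all genes. Hist1h2bc stayed lower in S than in G1 in both, at −0.77 (−0.91 to −0.64) and −1.03 (−1.29 to −0.77).

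**Figure D2:**
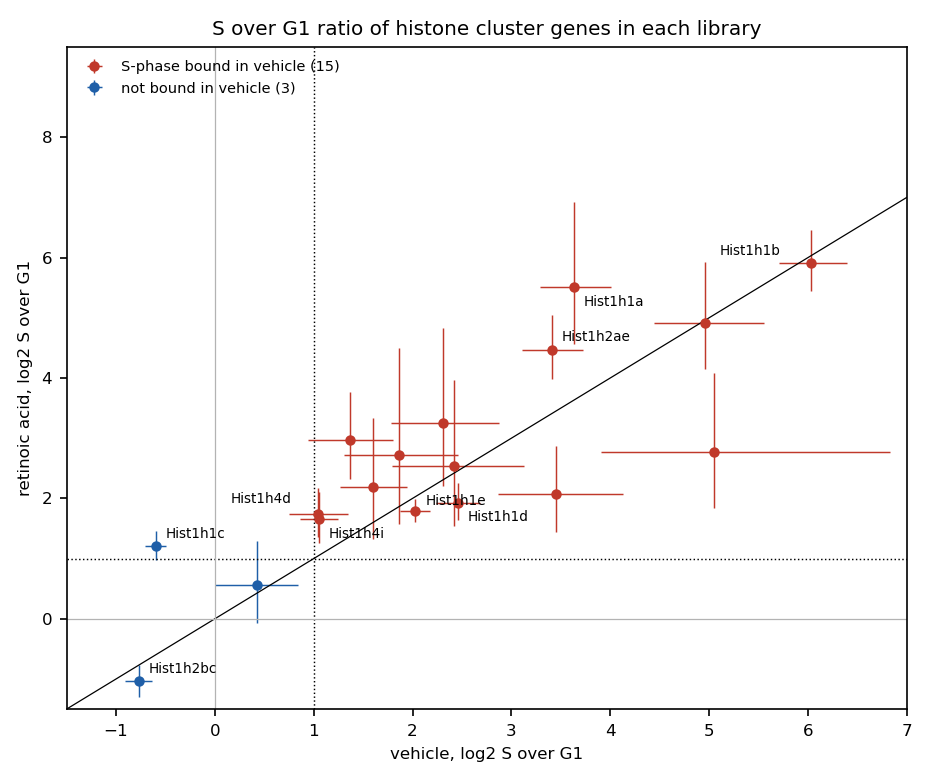
Log2 ratio of CPM in S over G1 cells in the vehicle (x) and retinoic acid (y) libraries for the 18 genes decided in both, with 95% counting intervals; the solid line marks equal ratios and the dotted lines the limit of 2-fold. Hist1h1c sits at −0.60 on x and 1.21 on y, and Hist1h2bc below 0 in both.

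Summed over all cells, the 16 bound genes were higher under retinoic acid and the 5 others lower. The bound sum was 315 CPM (312 to 319) against 393 CPM (389 to 396), log2 0.32 (0.29 to 0.34). Within S and G2/M it was nearly level, and in G1 it was lower under retinoic acid. Vehicle and retinoic acid cells had 388 and 376 CPM in S (−0.05, −0.08 to −0.01, and 0.035 with TMM scaling), 510 and 508 CPM in G2/M (−0.01, −0.03 to 0.02, and 0.07 with TMM scaling), and 54.9 and 41.7 CPM in G1 (−0.40, −0.53 to −0.27). With the retinoic acid phases weighted by the vehicle shares, the log2 ratio of the bound sum was −0.04, and its sign changed with the scaling and with the way phases were called. Its leading gene carries much weight in this sum. Without Hist1h1b this log2 ratio was −0.13, and the median over the 16 genes was −0.50, with 10 lower and a range from −1.60 for Hist1h3d to 0.60 for Hist2h2ac. By type, the bound H1 genes were then at 0.03, H2A at 0.34, H2B at −0.53, H3 at −1.12 and H4 at −0.44.

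The sum of the genes not bound was lower in every phase. It was 126 CPM (124 to 128) against 45.04 CPM (43.8 to 46.3), 2.80-fold lower (log2 ratio −1.49, −1.53 to −1.44). It was at 127 and 29.3 CPM in G1 (−2.12, −2.27 to −1.98), 85.4 and 37.7 CPM in S (−1.18, −1.28 to −1.08), and 143 and 55.3 CPM in G2/M (−1.38, −1.44 to −1.31). Vehicle S and G1 values set the split, so the wider gap in G1 is no independent support. At the vehicle shares of phases the sum was at −1.58, and each of the 5 genes was lower, from −0.80 for Hist1h2be to −2.06 for Hist1h2bc. Over the 12 cluster genes with at least 100 UMIs in G1 cells, 5 were at least 2-fold lower there (41.7%, against 11% of all genes). Of all cluster UMIs, the bound genes held 64.7% and the genes not bound 25.9% with vehicle, and 81.2% and 9.32% with retinoic acid. With the split set by the retinoic acid library, only Hist1h2bc and Hist1h2be were not bound, and their sum had a log2 ratio of −2.02. The 19 genes bound by that split, which include Hist1h1c, had a log2 ratio of −1.23 (−1.34 to −1.12) in G1 cells. Cells also differed in depth by phase, with means of 14222, 19343 and 25046 UMIs in G1, S and G2/M of vehicle cells and 11023, 15269 and 20015 of retinoic acid cells, so a CPM is a share of a cell's RNA and not an amount.

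**Figure D3:**
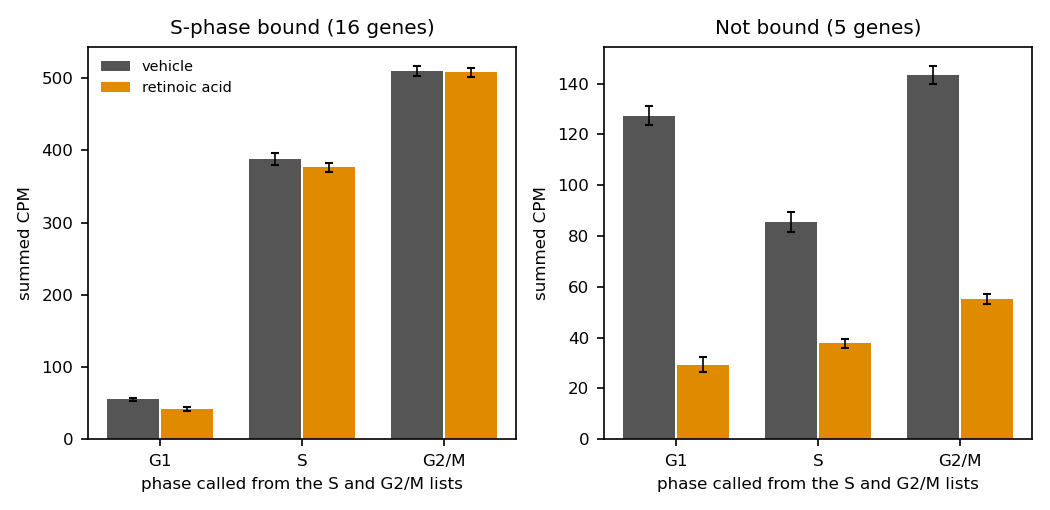
Summed CPM of the 16 S-phase bound genes (left) and the 5 genes not bound (right) in cells called G1, S and G2/M, for vehicle (grey) and retinoic acid (orange), with 95% counting intervals. The bound sums are nearly level in S (388 and 376 CPM) and G2/M (510 and 508 CPM), and the others are lower under retinoic acid in each phase, most in G1 (127 and 29.3 CPM). Vehicle S and G1 values set the split, so the sums in those cells are no independent support.

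The cells were also ordered without phase calls. Each library was divided into 5 groups of near-equal size by the share of a cell's UMIs in the S list. The phase calls also used that list, and the split used vehicle S and G1 values. The rise of the bound sum and the flatness of the genes not bound in vehicle groups therefore describe the split and are no independent support. From the lowest to the highest group, the bound sum was 55.4, 117, 278, 399 and 579 CPM in the vehicle. With retinoic acid it was 143, 284, 385, 522 and 602 CPM. The groups of the libraries do not sit at the same S share, whose medians ran from 0.02% to 0.42% with vehicle and from 0.06% to 0.56% with retinoic acid. The lowest group held 97.6% called G1 cells with vehicle and 67.0% with retinoic acid, where 32.7% were called G2/M. The bound sum of that group was higher under retinoic acid, unlike in called G1 cells. The libraries had a median share in common at 2 places. At 0.22% the bound sum was 399 CPM (391 to 407) for vehicle and 385 CPM (377 to 393) for retinoic acid, and at 0.06% it was 117 CPM (112 to 123) and 143 CPM (137 to 148). The genes not bound stayed between 100 and 137 CPM in the vehicle groups and between 38.5 and 51.7 CPM in the retinoic acid groups. In the group at 0.22% they were at 137 CPM (132 to 141) and 46.1 CPM (43.4 to 48.9).

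**Figure D4:**
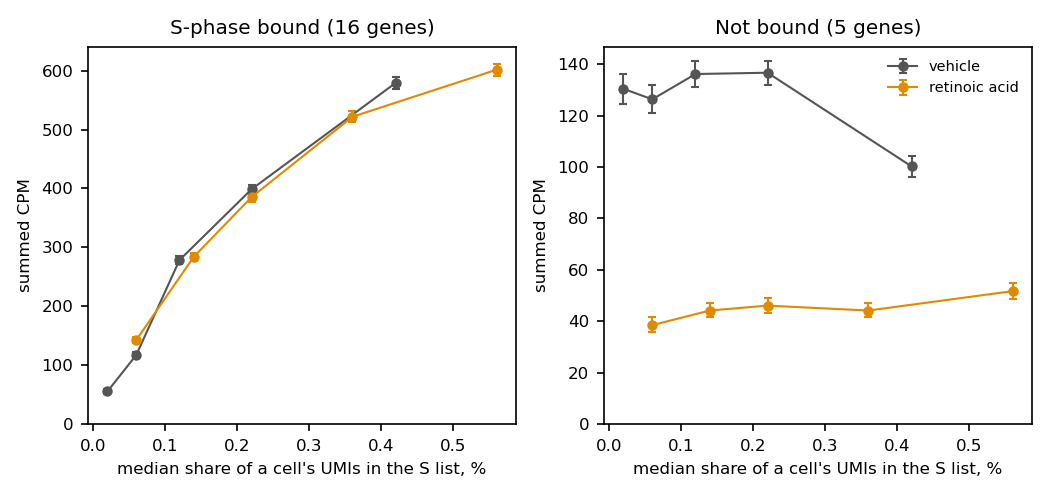
Summed CPM of the bound genes (left) and the genes not bound (right) in 5 groups of cells of each library, placed at the group's median share of UMIs in the S list, with 95% counting intervals. The bound sums are higher at higher S shares in both libraries, from 55.4 to 579 CPM in the vehicle and from 143 to 602 CPM under retinoic acid, while the others lie apart, above 100 CPM in the vehicle and below 52 CPM under retinoic acid. Vehicle S and G1 values set the split, so the vehicle rise of the bound sum is no independent support.

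Hist1h1c encodes the linker histone H1.2. It was at 69.3 CPM in vehicle G1 cells, 45.7 in S and 66.4 in G2/M, against 10.9, 25.3 and 33.99 CPM under retinoic acid. The gap was therefore widest in G1 (log2 ratio −2.66) and narrower in S (−0.86) and G2/M (−0.97). The vehicle G1 and S values of Hist1h1c also set its class. Along the 5 groups of rising S share, Hist1h1c was at 71.8 CPM in the lowest and 56.0 CPM in the highest group with vehicle, and at 17.2 and 38.1 CPM with retinoic acid. Hist1h2bc behaved otherwise, at 48.5, 28.4 and 56.8 CPM in G1, S and G2/M of vehicle cells and 14.5, 7.07 and 11.1 CPM of retinoic acid cells. Along the S share it was at 15.1 CPM in the lowest and 5.84 CPM in the highest group under retinoic acid. Hist1h2ac, an H2A gene beside it, was at 6.05 and 2.93 CPM over all cells (−1.05, −1.25 to −0.85). Hist1h2be, at 4.62 and 2.94 CPM (−0.65), shares 496 bases of its annotated span with Hist1h1e on the same strand. Hist3h2a, at 3.76 and 1.66 CPM (−1.18), lies wholly inside the annotated span of Trim17 on the same strand. Hist1h2ac and the bound gene Hist2h2bb also overlap a non-coding gene on their own strand, so reads of these genes and of Hist1h1e are uncertain where spans are shared.

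The summed markers of several other cell types were also lower under retinoic acid. The 7 markers of mast cells or basophils summed to 803 CPM with vehicle and 68.1 CPM with retinoic acid, with Cpa3 at 570 and 0.0999 CPM. Fcer1a had 0 counts in both and Prss34 had 0 in the retinoic acid library, while Ms4a2 went the other way, at 1.45 and 2.05 CPM. The 7 monocyte markers summed to 80.8 and 9.67 CPM, with Adgre1 at 73.7 and 5.15 CPM and Ccr2 at 6.05 and 3.52 CPM. F13a1 was at 0.807 and 0.818 CPM, Irf8, C1qa and Csf1r had 2 to 14 UMIs, and Ms4a7 was at 0 in vehicle cells. The 5 megakaryocyte markers summed to 29.1 and 1.18 CPM, with Itga2b at 28.9 and 0.491 CPM and Ppbp at 0 in vehicle cells. Gp9, at 0.0807 and 0.518 CPM, and Gp1bb, with 1 and 11 counts, went the other way. The 6 eosinophil markers summed to 126 and 34.7 CPM. In the other direction, the 6 markers of mature neutrophils summed to 40.2 and 319 CPM, of which Retnlg gave 3.28 and 234 CPM, while Cxcr2 was at 16.6 and 6.82 CPM. B cell, T or NK cell and erythroid lists summed to under 4 CPM in both. Only 407 of 5476 vehicle and 3707 of 7140 retinoic acid cells had no UMI of the mast cell or basophil list. In these cells the genes not bound were at 87.8 and 44.1 CPM (log2 ratio −0.99, −1.14 to −0.84), and the bound genes at a log2 ratio of 0.17 (0.10 to 0.25). Hist1h2bc was then at −1.39 and Hist1h1c at −0.99. This selection was chosen after seeing the data. It used full counts, so cells with few UMIs pass it more easily, and it kept unlike shares of the libraries. The part of depth in the change was not tested. The part of the other markers in the result was not tested.

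Within the retinoic acid library the genes were compared over 4 groups of cells by the share of UMIs in a list of neutrophil maturation genes, with that list left out of the totals. Cells of 1 library are not replicates. From the lowest to the highest group, the bound sum was 383, 395, 475 and 464 CPM and the sum of the others 46.9, 45.2, 50.3 and 53.1 CPM. The log2 ratios of highest over lowest group, 0.28 and 0.18, were −0.055 and −0.15 with the list kept in the totals, so no direction is read from them. The lowest group had a median maturation share of 0.86%. Its 46.9 CPM for the genes not bound leaves the list out of the total, unlike the 126 CPM of the vehicle. The part of maturation in the gap between the libraries was not tested. G1 cells made up 14.8%, 15.3%, 13.2% and 36.7% of the groups. Among G1 cells only, the genes not bound were at 47.5, 35.8, 20.7 and 28.1 CPM, a log2 ratio of highest over lowest of −0.76 (−1.12 to −0.40). Hist1h2bc differed in the same direction, at 31.3, 18.8, 9.35 and 6.89 CPM (−2.17, −2.85 to −1.56), whereas Hist1h1c was at 11.9, 12.1, 7.73 and 16.3 CPM (0.45, −0.14 to 1.07). The bound genes were at 51.4, 51.4, 47.6 and 41.9 CPM in G1 cells (−0.30, −0.62 to 0.02).

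The annotated transcripts set the genes apart as well. The longest annotated 3′ UTR had a median of 93 bases over all 63 genes and 146.5 bases over the bound genes. The 5 genes not bound all exceeded 600 bases, at 880 for Hist1h1c, 742 for Hist1h2bc, 2058 for Hist1h2ac, 1906 for Hist1h2be and 1700 for Hist3h2a. Bound genes exceeded 600 bases in 5 of 16 cases, among them Hist1h1d with 4931 and Hist1h1e with 1209. The stem-loop was found in 13 of the 16 bound genes and in 4 of the 5 others. In those 4, the transcript runs on for 840 (Hist1h1c) to 2010 (Hist1h2ac) bases past it, while Hist1h2bc has a transcript of 2 exons in which it was not found. Dividing the 49 genes at their median UTR length of 114 bases, a division made after seeing the values, put 10 of the 11 genes at least 2-fold lower among the 24 with longer UTRs. The other one was Hist1h3g, with 95 bases. The median log2 ratio was −0.74 for these 24 (18 lower) and −0.12 for the other 25 (13 lower). Hist1h4d (822 bases, 0.69) and Hist1h1e (0.39) had long UTRs and were higher. Of the 63 genes, 16 have an annotated UTR of at most 50 bases, which can be an incomplete transcript model. The shorter side of the division is therefore uncertain. Of all genes, 10.2% were at least 2-fold lower. They were not divided by UTR length, so whether they show the same trend was not tested.

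**Figure D5:**
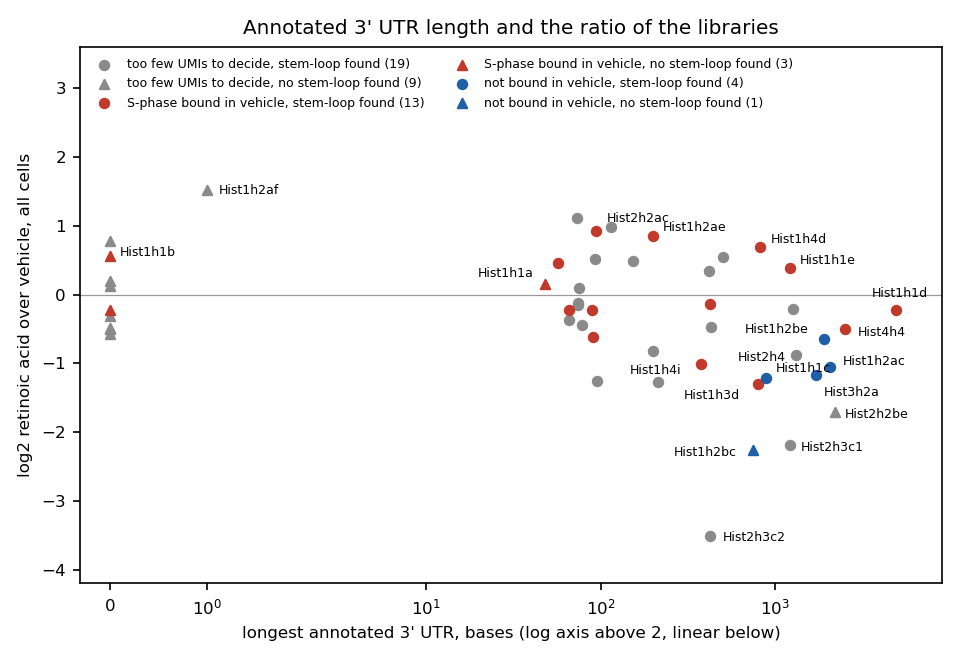
Longest annotated 3′ UTR in bases (x, logarithmic above 2 and linear below) against the log2 ratio of retinoic acid over vehicle in all cells (y) for the 49 genes with at least 100 UMIs; circles mark genes whose transcripts hold the stem-loop and triangles those where it was not found. Genes at least 2-fold lower lie mostly at the right, where the UTR exceeds the median of 114 bases, but Hist1h4d and Hist1h1e lie above 0 there. UTRs of at most 50 bases can be incomplete transcript models.

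Promoters were read from RefSeq (GRCm38.p6), as the 300 bases from 250 before to 50 after the start, for 57 of the 63 genes. The motifs searched on both strands were CCAAT (in 84.2% of these promoters and 37.4% of all 32851), TATAAA (57.9% and 13.6%), ATTTGCAT, the octamer bound by POU factors (21.1% and 1.74%), and AAACACA, an element of H1 promoters (10.5% and 7.18%). A match is a match of letters and not a site. A pair of H1 promoters is shown because Hist1h1b and Hist1h1c share AAACACA and CCAAT, while their ratios over all cells went in opposite directions. Within S and within G1 cells Hist1h1b was close between the libraries, while Hist1h1c was lower under retinoic acid in each phase. Hist1h1b is at chr13:21780576-21780875 on the minus strand and Hist1h1c at chr13:23738557-23738856 on the plus strand, with motifs in capitals. TATAAA was found for Hist1h1b and not for Hist1h1c.
Hist1h1b: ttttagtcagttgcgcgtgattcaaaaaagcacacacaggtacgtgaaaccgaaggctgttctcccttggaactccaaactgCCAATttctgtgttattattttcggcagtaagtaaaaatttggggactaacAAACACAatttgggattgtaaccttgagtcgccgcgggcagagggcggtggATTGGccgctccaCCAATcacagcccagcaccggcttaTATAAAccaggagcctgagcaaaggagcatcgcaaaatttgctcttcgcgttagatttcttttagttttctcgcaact
Hist1h1c: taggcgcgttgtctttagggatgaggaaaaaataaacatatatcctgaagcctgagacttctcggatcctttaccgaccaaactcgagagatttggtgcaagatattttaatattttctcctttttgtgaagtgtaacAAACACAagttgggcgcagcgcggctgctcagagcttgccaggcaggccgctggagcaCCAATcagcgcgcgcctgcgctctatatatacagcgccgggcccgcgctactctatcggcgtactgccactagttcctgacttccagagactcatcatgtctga

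Many H2A and H2B genes lie head to head and share the bases between their starts. Of 11 such pairs, 1 of which joins H2B with H3, with starts at most 1000 bases apart, 7 had at least 100 UMIs for both genes. In 2 of these 7 both genes lay on the same side of 0. Of the H2A genes 8 of 12 were higher and of the H2B genes 13 of 14 lower. The share of same-side pairs that this alone would give was not computed. Hist1h2ae and Hist1h2bg, whose starts are 176 bases apart, were at 0.86 and −0.82, and Hist2h2ac and Hist2h2be, 239 bases apart, at 0.93 and −1.71. The 2 pairs on the same side were Hist1h2ak (0.19) with Hist1h2bn (0.12), and Hist1h2ac (−1.05) with Hist1h2bc (−2.26). The region between the starts of the latter, 251 bases apart, is part of the Hist1h2ac promoter on the minus strand at chr13:23683910-23684209, shown because both genes are among the 5 not bound. It holds 3 CCAAT, 1 TATAAA and 1 ATTTGCAT, in capitals on either strand.
Hist1h2ac: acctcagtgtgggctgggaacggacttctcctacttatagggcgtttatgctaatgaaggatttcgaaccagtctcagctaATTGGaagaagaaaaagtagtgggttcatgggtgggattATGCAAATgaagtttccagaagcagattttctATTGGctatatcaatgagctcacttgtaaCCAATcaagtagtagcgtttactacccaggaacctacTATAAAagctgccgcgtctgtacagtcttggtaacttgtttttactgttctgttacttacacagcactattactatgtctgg

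Genes that make, process or carry histones were read from lists, with ratios over all cells, which mix phases, unless said otherwise. Of 12 genes for transcription and 3′ end processing with at least 100 UMIs, 6 were higher and 6 lower, none by 2-fold, with a median log2 ratio of 0.06. Slbp, which encodes the stem-loop binding protein, was at 99.5 and 153 CPM (0.62), and Casp8ap2, needed for histone transcription and processing, at 31.0 and 54.6 CPM (0.82). Both are also in the S list, whose 43 genes had a median of 0.58 (42 higher). Npat, the coactivator of histone gene transcription, was at 11.7 and 13.8 CPM (0.24). The 4 decay genes found by symbol had a median of 0.03, with Eri1, the exonuclease that trims histone 3′ ends, at 0.37. Of 15 chaperone genes, which hand histones to DNA, 10 were higher and 5 lower (median 0.33), from Asf1b (48.5 and 87.5 CPM, 0.85) to Ipo4, an importin for histones (13.4 and 5.08 CPM, −1.40). Of all 11788 genes, 5386 were higher. The chaperone sum had a log2 ratio of 0.27 over all cells, 0.07 at the vehicle shares of phases and 0.05 in S cells. Nasp and Chaf1b are also in the S list, and Anp32e is in the G2/M list.

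Histone variants outside the clusters, most of which are made throughout the cycle with ordinary poly(A) tails, were far more abundant here. They summed to 6453 and 6814 CPM, against 487.7 and 483.3 CPM for the cluster genes. Of 10 with at least 100 UMIs, 5 were higher and 5 lower, with a median log2 ratio of 0.03. H2afz, which encodes H2A.Z, was at 2028 and 2356 CPM (0.22), and the H3.3 genes H3f3a and H3f3b were at 0.24 and 0.16. H2afx, whose protein is phosphorylated at DNA breaks (−0.36), H2afj (−0.58) and H2afy, which encodes macroH2A1 (−0.61), were lower. H1fx, a linker histone gene outside the clusters, was at 21.1 and 6.15 CPM (−1.78), and the linker histone gene H1f0 at 199 and 185 CPM (−0.10).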

How the data were processed

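The authors deposited, for each of 2 libraries, a sparse matrix of whole-number UMI counts without normalization. These were made with Cell Ranger 4.0.0 on builds mm10 and GRCm38.p4, per the submitters' processing notes. The annotation and the rule for calling cells are not given in the sources used here. Cells with at least 1000 UMIs, 500 genes and at most 10% mitochondrial UMIs were kept, which left out 310 vehicle and 276 retinoic acid barcodes. Scrublet called 9 and 16 cells doublets (0.164% and 0.224%), and none were removed. How well these calls worked was not tested, so doublets may remain. Counts were summed over cells and divided by the library total (CPM). 3′ counts are not divided by length. Ratios have 0.5 counts added, with exact conditional binomial intervals, and sums have Poisson intervals. A sum of 0 allows 3 counts (0.0303 CPM in the vehicle, 0.0273 CPM in the retinoic acid library). For phases, cells with at least 5000 UMIs (5282 and 6659) were thinned to 5000 UMIs and scored together with scanpy 1.11.5, against control genes seen in at least 10 cells. Genes named are members reaching 5 CPM in either library, the 5 highest and 5 lowest by retinoic acid over vehicle and by S over G1 under retinoic acid, and list genes reaching 20 CPM. Other genes named (Hist1h2bg, Hist1h2an, Hist2h2ab, Hist1h2ak, Hist1h2bn, Hist1h2bm, Hist2h2bb, Hist1h3a, Hist1h3g, Hist3h2a, Hist4h4, Npat, Ipo4) were chosen after their values were seen. The members and lists were chosen with earlier results of these data known. Ratio calculations were tested on simulated counts. Alternatives covered scaling, cell filters, doublets, cell weights, gene limits, phase calls, the split and near-identical copies.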

Additional observations from a re-analysis of the deposited data

Results flagged for a closer look

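Hist1h1c was flagged because its S over G1 ratio pointed in opposite directions in the 2 libraries. The log2 ratio was −0.60 with vehicle and 1.21 with retinoic acid. Such opposite sides, with both intervals clear of 1, were found for 1 of 18 cluster genes (5.56%) and for 2.7% of all genes. With 1 library in each group, the difference between the libraries was not tested.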

How the results depend on the processing

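No paired analysis was possible because vehicle and retinoic acid had 1 library apiece, and for the same reason no replicate could be left out. Of 330 recomputed values, 214 stayed within the reported value's counting interval or, for counts of genes, within 1.5 times. In all, 28 changed sign, 13 of them where the reported interval lay clear of 0. Of the 17 members named by level, Hist1h3e (−0.14) changed sign, to 0.097 with every cell weighted equally. The alternatives with all genes as controls of the phase score and with cells with a mast cell or basophil UMI left out, were chosen after seeing the data. The causes of the changes were not tested.

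The log2 ratio of the cluster sum (−0.01) was 0.067 with TMM, 0.014 without cells of at most 0.1% mitochondrial UMIs, 0.041 with equal weight for cells, −0.20 without Hist1h1b and 0.072 without near-identical copies. Of members 2-fold higher (2), 4 were found with TMM, 1 at a limit of 500 UMIs and 7 at 1.5-fold, and of those 2-fold lower (11), 9 with TMM, 7 at 500 UMIs, 15 at 1.5-fold and 15 at a limit of 10 UMIs. Over all genes the higher and lower shares were then 4.80% and 9.37% with TMM, 3.44% and 6.95% at 500 UMIs, 9.71% and 17.6% at 1.5-fold, and 5.72% and 15.05% at 10 UMIs. Bound members numbered 40 in vehicle and 37 under retinoic acid at a limit of 10 UMIs, and 7 and 9 at 500.

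The bound sum over all cells (0.32) was 0.40 with TMM, 0.34 without low-mitochondrial cells, 0.34 without the highest doublet scores, 0.54 with equal weights, 0.19 without Hist1h1b, 0.39 with phases at 3000 UMIs, 0.17 with the split set by the retinoic acid library, 0.34 with all control genes and 0.17 without mast cell or basophil UMIs. At vehicle phase shares (−0.04) the same settings gave, in turn, 0.041 with TMM, −0.014 without low-mitochondrial cells, 0.073 with equal weights, −0.13 without Hist1h1b, 0.036 at 3000 UMIs, −0.17 with the other split, 0.026 with all control genes and −0.0043 without mast cell or basophil UMIs, and 0.029 with phases called in each library apart. In S cells (−0.05) it ran from −0.27 with all control genes to 0.047 in the top of 5 groups by S share, with 0.035 under TMM and 0.030 with phases apart. In G1 cells (−0.40) it ran from −1.23 with the other split to −0.15 without mast cell or basophil UMIs, and was 1.38 in the bottom of the 5 groups, whose S shares differ. In G2/M cells (−0.01) it ran from −0.11 without Hist1h1b to 0.13 with equal weights.

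The sum not bound (−1.49) was −1.41 with TMM, −1.40 at 3000 UMIs, −2.02 with the other split and −0.99 without mast cell or basophil UMIs. At vehicle phase shares (−1.58) it was −1.4995 with TMM, −1.51 with equal weights, −1.89 with the other split and −0.98 without those UMIs. Highest over lowest maturation group, the bound sum (0.28) was −0.055 with the maturation list kept in the total and −0.52 between the outermost of 10 groups, and the sum not bound (0.18) was −0.15 and −0.35. These directions therefore rest on the choice of total and groups. In G1 cells, keeping the list gave −0.78 for the bound sum (−0.30) and −1.24 for the sum not bound (−0.76).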
